A study of Drosophila melanogaster with 34 samples.

Results

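The last step of tumor growth sampled in this series compares *scrib* mutant tumors at 14 days after egg laying (AEL) with *scrib* mutant tumors at 12 days AEL. It takes the 4 libraries labelled with the older age and the 4 labelled with the younger one, which are 8 of the 34 RNA-seq libraries of the series and 8 of its 27 tumor libraries. All of the 17641 listed genes were looked at, and 8317 of them were expressed highly enough in these 8 libraries to be tested. Both groups were wing imaginal discs of larvae homozygous for *scrib1* on an *FRT82B* chromosome, from the strain *scrib1 FRT82B*/TM6B, and age was the only label in which they differed. About 50 embryos per vial, laid within 3 h, were raised at 25 °C. The other libraries are tumors of the same genotype at 4, 5, 6, 8 and 10 days AEL and *FRT82B* control discs at 4 and 5 days AEL, and they enter only where they are named. The mutation was carried by the whole larva, and no control discs of 12 or 14 days were analysed here, so age of the larva and age of the tumor cannot be told apart. Bulk tissue was sequenced, so fewer cells of a type and less RNA per cell cannot be told apart either.

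Scribble is a scaffold protein of the basolateral cortex that keeps epithelial cells polarised. Imaginal discs without it lose their layered structure and grow on as disorganised masses, while the larva delays pupariation and stays in its last instar for days longer than normal. Overgrown discs are known to signal to the rest of the larva through secreted proteins such as Ilp8, and their growth depends on amino acid supply, protein synthesis and the turnover of damaged proteins.

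Expression is given in CPM, the share of a library's reads that fell on a gene, after a scaling between libraries. Of the reads, 19450463 to 21293019 per library fell on genes, and 3 reads, the smallest level taken as different from 0, came to 0.140 to 0.152 CPM. All 21 genes of a list of disc epithelium markers were tested, and their summed level was 4114 to 4784 CPM at 14 days and 3837 to 4829 CPM at 12 days. Of the *scrib* transcript itself, 804, 791, 757 and 893 CPM were found at 14 days and 693, 738, 750 and 697 CPM at 12 days. The log2 fold change was 0.17 (limma, adjusted p = 0.131 in the 8 libraries and 0.0347 with the spread of all 34 libraries). Both ages carried the mutation, so this difference is no check of the genotype. Control discs averaged 453 ± 57.2 CPM at 4 days and 458 ± 13.6 CPM at 5 days (SD), so the tumors showed no loss of this RNA. Of the 12 day libraries, replicates 2 and 3 stood apart in *roX1*, a noncoding RNA of the complex that doubles X-linked transcription in males, with 330.4 and 333.9 CPM. The others had 991, 1031, 663 and 988 CPM at 14 days and 924 and 738 CPM at 12 days. Tumors of 4, 5, 6 and 8 days averaged 222, 256, 235 and 265 CPM, those of 10 days 380 ± 279 CPM (SD), and control discs of 4 and 5 days 267 and 309 CPM. Replicates 2 and 3, called the libraries of low *roX1* below, were thus low only beside the other libraries of 12 and 14 days. The sex of the larvae is not given in the labels, and its part in the results was not tested. Counts without these 2 libraries are therefore given for most lists.

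In tumors of 14 days, 186 genes were higher (2.24% of those tested) and 222 were lower (2.67%) than in tumors of 12 days. These calls came from limma on log2(CPM + 1) of the 8 libraries, with the adjusted p below 0.05. A second fit set the same difference against the spread of all 34 libraries, and is called the 34-library fit below. The root mean square SD of log2(CPM + 1) over tested genes was 0.202 at 12 days and 0.191 at 14 days. In the other groups it lay between 0.134 and 0.217. For single genes the standard error moved either way, from 0.316 to 0.201 for *mnd* and from 0.0782 to 0.152 for *chinmo*. A smaller adjusted p in the second fit can thus come from the libraries of other ages. The 34-library fit gave 622 genes that were higher (7.48%) and 1056 that were lower (12.7%) at 14 days. In 558 genes (6.71%) every library at 14 days lay above every library at 12 days, and in 758 genes (9.11%) every one lay below. The changes were small, with a median size of 0.34 on the log2 scale among the 408 genes called in the 8 libraries, of which 8 changed by more than a factor of 2. The median over all tested genes was −0.01, and 46.8% of genes had a value above 0. Counts for the gene lists below are to be read against these shares of all tested genes.

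The number of calls from the 8 libraries alone changed widely when a single library was left out. Leaving out replicate 4 at 14 days or replicate 4 at 12 days gave 0 calls in limma, where 1451 and 1665 genes had an unadjusted p under 0.05. Of the other 14 day libraries, leaving out replicate 1, 2 or 3 gave 22, 1 and 146 calls, and of the 12 day libraries, leaving out replicate 1, 2 or 3 gave 548, 99 and 66. Leaving out both 12 day libraries of low *roX1* also gave 0, with 2054 genes at an unadjusted p under 0.05. In the 34-library fit the count lay between 1019, without replicate 4 at 14 days, and 1681, without replicate 1 at 12 days. It was 1697 without both libraries of low *roX1*. A fit with edgeR on the recovered reads called 382 genes in the 8 libraries and 1598 with all 34. For these reasons an adjusted p is given for both fits below, first that of the 8 libraries and then that of the 34-library fit. The balance of the calls also moved with the scaling. In the 8 libraries 45.6% of the called genes were higher at 14 days, against 65.6% when the reads were scaled by library size only and 55.6% with the size factors of DESeq2. For the 34-library fit the share was 37.1%, and 53.2% with scaling by library size only.

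**Figure D1:**
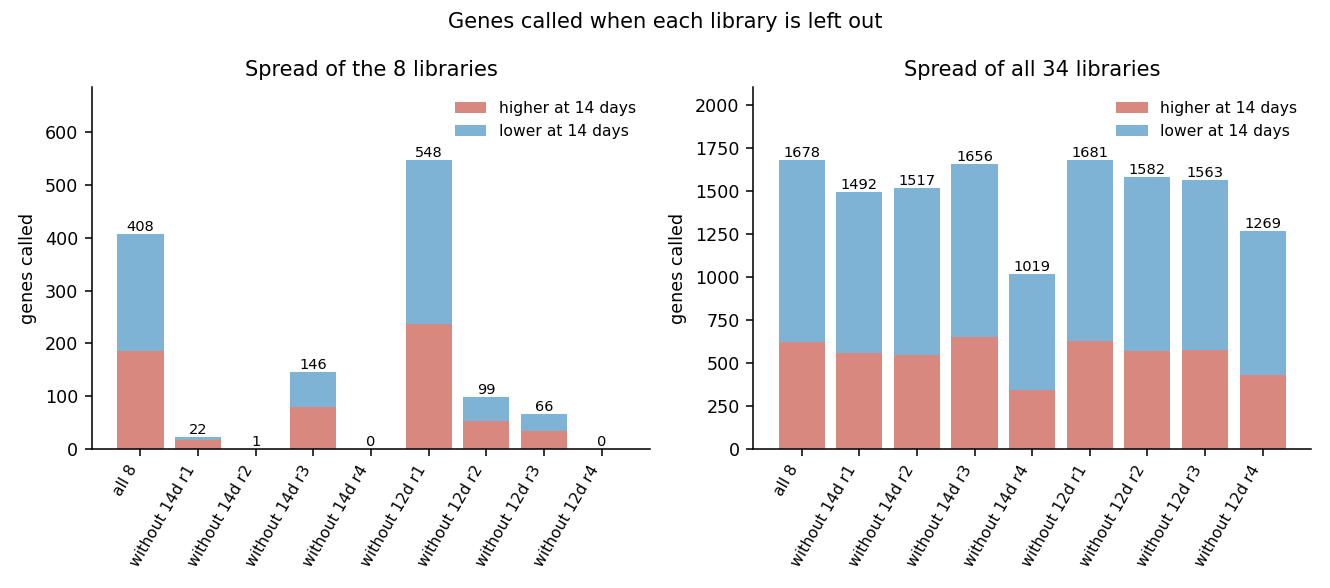
Number of genes called higher (red) and lower (blue) at 14 days than at 12 days AEL, with all 8 libraries and with each of them left out, for the fit of the 8 libraries (left) and the 34-library fit (right). On the left the count ran from 0 to 548 and on the right from 1019 to 1681.

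**Figure D2:**
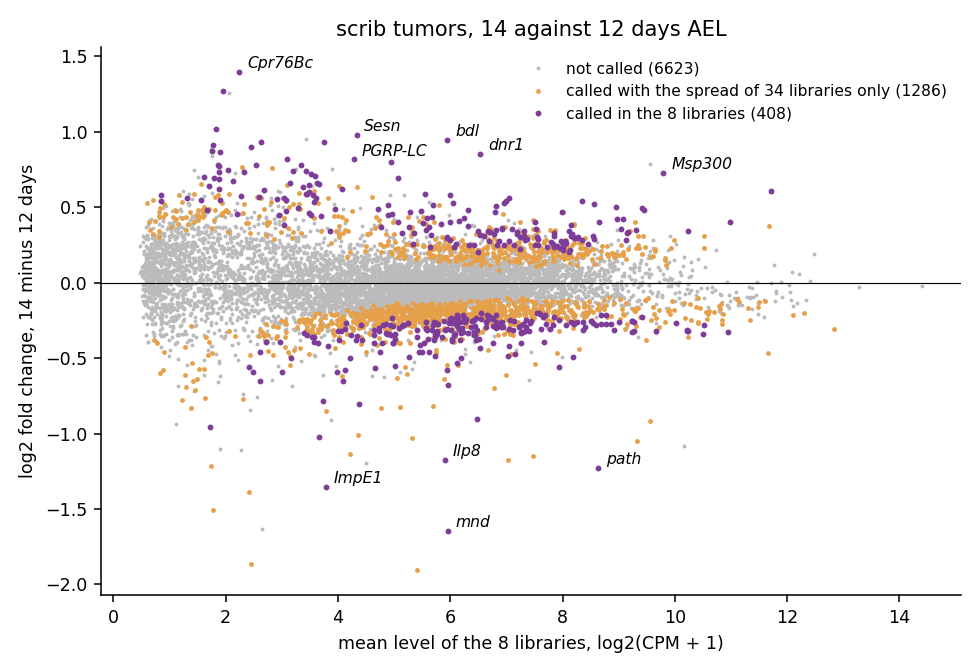
Log2 fold change of each of the 8317 tested genes (14 minus 12 days AEL, vertical axis) against its mean level in the 8 libraries on the log2(CPM + 1) scale (horizontal axis). Purple points were called in the 8 libraries (408), orange points in the 34-library fit only (1286), and most called genes lay within 1 log2 unit of 0.

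Transporters that bring amino acids into the cell were among the most strongly reduced genes. Of the genes called in the 8 libraries *mnd* had the lowest fold change on the log2(CPM + 1) scale. *mnd* (chromosome 3L, 14985100 to 14991667 in BDGP6) encodes an amino acid transporter of the SLC7 family and is needed for disc growth. It had 32.5, 16, 42.3 and 25.8 CPM at 14 days and 50.8, 88.0, 140 and 95.5 CPM at 12 days. Every library at 14 days lay below every library at 12 days. Its log2 fold change was −1.64 (standard error 0.316, adjusted p = 0.0278 and 6.06e-06), a fall to 0.32 of the level at 12 days on the scale of CPM + 1. *path* (chromosome 3L, 9494555 to 9505328) encodes an SLC36 transporter that promotes growth. It had 254.8, 130, 297 and 251 CPM at 14 days and 295, 592, 810 and 532 CPM at 12 days. The groups overlapped by a single pair of libraries, replicate 3 at 14 days and replicate 1 at 12 days, and the log2 fold change was −1.23 (standard error 0.306, adjusted p = 0.047 and 9.86e-05).

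The other transporter genes had smaller changes or none that passed. *CD98hc*, the heavy chain that SLC7 transporters need at the membrane, had 247, 223, 259 and 232 CPM at 14 days and 256, 360, 352 and 404 CPM at 12 days. Its groups overlapped at replicate 3 of 14 days and replicate 1 of 12 days, and its log2 fold change was −0.50 (adjusted p = 0.0427 and 0.000252). *JhI-21*, another SLC7 transporter, averaged 118 ± 11.9 CPM at 14 days and 165 ± 26.8 CPM at 12 days (SD, n = 4 each), without overlap (log2 fold change −0.47, adjusted p = 0.0433 and 0.000411). Among enzymes that supply single carbon units and amino acids, *Nmdmc*, a mitochondrial enzyme of folate metabolism, had 47.3, 46.7, 49.6 and 43.5 CPM at 14 days and 67.0, 64.2, 97.8 and 76.6 CPM at 12 days. All libraries at 14 days were the lower ones (log2 fold change −0.68, standard error 0.116, adjusted p = 0.0226 and 1.16e-05). *AsnS*, which makes asparagine, averaged 44.9 ± 9.61 CPM at 14 days and 70.9 ± 17.9 CPM at 12 days (SD, n = 4 each). It was called in the 34-library fit but not in the 8 (log2 fold change −0.64, adjusted p = 0.0691 and 0.00214). In a list of 12 such genes, drawn up after their values were seen, 5 were lower in the 8 libraries and 6 in the 34-library fit. The 6 were also lower in the 34-library fit with any 1 of the 8 libraries left out and without both libraries of low *roX1* (list of Amino acid transport and one-carbon). Of its 7 transporter genes, 3 were not called and overlapped between the ages. *gb* averaged 24.1 ± 1.08 CPM at 14 days and 24.6 ± 1.49 CPM at 12 days (SD, n = 4 each; −0.03, adjusted p = 0.848), *slif* stood at −0.02 (adjusted p = 0.964) and *CG9413* (*sbm*) at −0.17 (adjusted p = 0.681). None of the list was higher in either limma fit, and *aay*, the one with the largest positive value, stood at 0.43 (adjusted p = 0.141). *CG3011* (*Shmt*) stood at −0.11 (adjusted p = 0.258).

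Some of the enzymes that charge tRNAs were lower too. Of 32 tested aminoacyl-tRNA synthetase genes, 5 were lower in the 8 libraries, 11 were lower in the 34-library fit and none was higher in either. Their median log2 fold change was −0.15. *AsnRS*, which charges asparagine tRNA, had 201.1, 187, 214 and 185 CPM at 14 days and 256, 283, 329 and 295 CPM at 12 days. It showed no overlap and the largest change of the list (−0.56, standard error 0.0795, adjusted p = 0.0226 and 6.06e-06). *CysRS* (−0.33, adjusted p = 0.0337) and *SerRS* (−0.28, adjusted p = 0.0449), which charge cysteine and serine tRNAs, were also lower in the 8 libraries. Without the 2 libraries of low *roX1* and in the 34-library fit, 9 Aminoacyl-tRNA synthetases were lower.

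**Figure D3:**
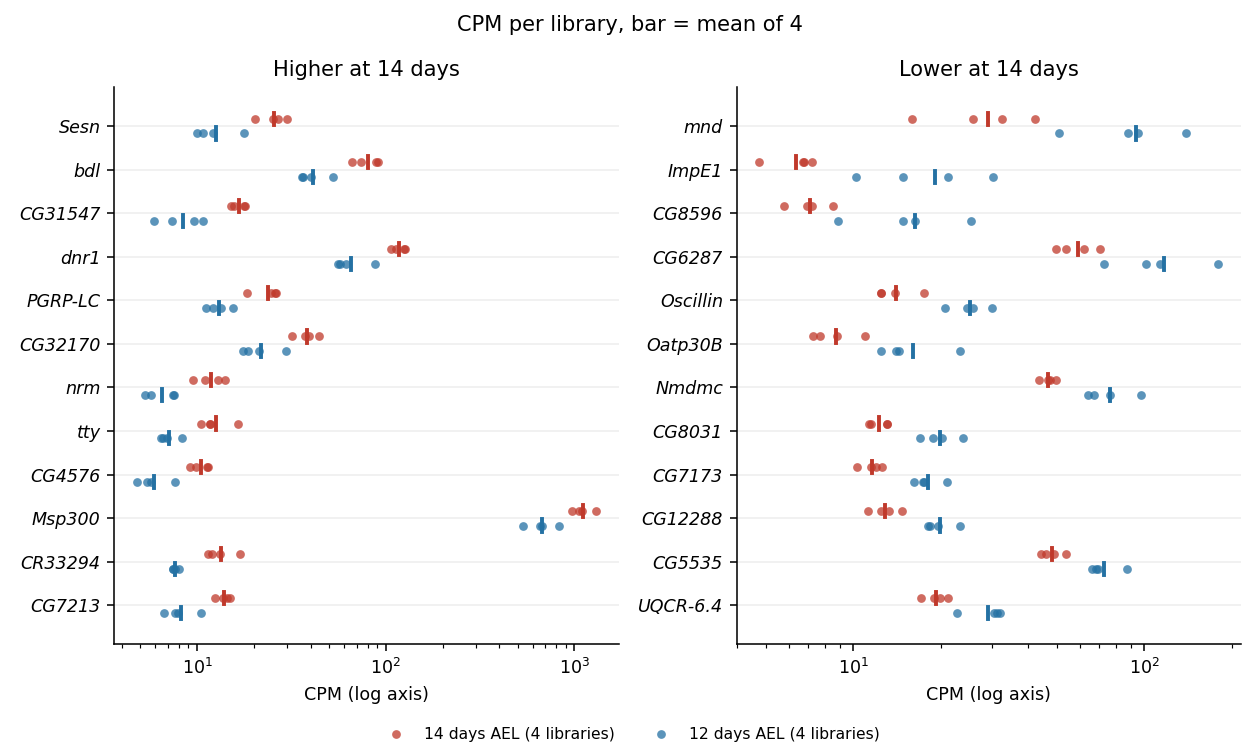
CPM of the 12 genes with the largest and the 12 with the smallest log2 fold change among the genes called in the 8 libraries, with a mean of at least 10 CPM at either age and no overlap between the ages (log axis). Each point is a library, 4 at 14 days (red) and 4 at 12 days (blue), and bars are means; all red points of a gene lie on 1 side of its blue points.

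Among the other strongly reduced genes, *Oscillin*, which encodes glucosamine-6-phosphate isomerase, had 12.5, 12.4, 17.5 and 13.9 CPM at 14 days and 20.7, 25.8, 24.5 and 30.0 CPM at 12 days (log2 fold change −0.80, adjusted p = 0.0226 and 6.06e-06). *CG6287* had 54.1, 49.6, 70.7 and 62.3 CPM at 14 days and 72.7, 113, 102 and 180 CPM at 12 days (−0.91, adjusted p = 0.0455 and 0.0014). Neither gene had overlapping libraries, though replicate 1 at 12 days came close to the 14 day libraries in both. *Oatp30B*, an organic anion transporter, was lower by −0.79 (adjusted p = 0.0395 and 0.000703). The lowered genes known mainly by their number were *CG8596* (*Cln7*, −1.02), *CG8031* (−0.65), *CG7173* (−0.59), *CG12288* (−0.58) and *CG5535* (−0.58), with adjusted p-values of 0.0226 to 0.0419 in the 8 libraries.

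Proteasome genes were lower almost throughout. The proteasome is the protease complex that degrades ubiquitin-tagged proteins, with a core of alpha and beta subunits and a regulatory particle of Rpt and Rpn subunits. All 34 tested genes had a negative log2 fold change, with a median of −0.24 against −0.01 over all genes. Over all tested genes, the shares that were lower in the 8 libraries, in the 34-library fit and without overlap were 2.67%, 12.7% and 9.11%. Of the 34 proteasome genes, 13 were lower in the 8 libraries, 31 in the 34-library fit, and 27 had no overlap between the ages. Their summed level was 4432 to 4726 CPM at 14 days and 5203 to 5709 CPM at 12 days. The core subunit *Prosbeta3* had 78.5, 72.2, 77.2 and 69.9 CPM at 14 days and 93.3, 90.9, 93.7 and 102 CPM at 12 days (−0.35, adjusted p = 0.0226 and 8.36e-06). The core subunit *Prosbeta4* averaged 78.4 ± 2.32 CPM at 14 days and 97.8 ± 10.1 CPM at 12 days, and the lid subunit *Rpn7* averaged 88.1 ± 3.48 CPM at 14 days and 108 ± 4.38 CPM at 12 days (SD, n = 4 each). Both were lower without overlap (−0.31 and −0.30, adjusted p = 0.0415 and 0.0253 in the 8 libraries). In the 34-library fit, 30 or 31 Proteasome genes were lower with any 1 of the 8 libraries left out, 31 were lower without both libraries of low *roX1*, and 31 were lower with scaling by library size only.

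Nuclear genes of oxidative phosphorylation, the chain of complexes that makes ATP in mitochondria, were also shifted downwards. Of 66 tested genes, 64 had a negative value, with a median of −0.19. In the 8 libraries 9 were lower, and in the 34-library fit 39 were, and none was higher in either. *Cyt-c-p*, the cytochrome c of somatic cells, had 58.9, 59.2, 68.1 and 52.4 CPM at 14 days and 84.3, 74.6, 79.7 and 101 CPM at 12 days (−0.50, adjusted p = 0.0306 and 0.000204). *UQCR-6.4*, a subunit of complex III, averaged 19.3 ± 1.72 CPM at 14 days and 29.1 ± 4.26 CPM at 12 days, and *COX8*, a subunit of complex IV, averaged 40.3 ± 4.55 CPM at 14 days and 55.7 ± 4.83 CPM at 12 days (SD, n = 4 each). Neither overlapped between the ages (−0.56 and −0.46, adjusted p = 0.029 and 0.0278 in the 8 libraries). The count for Oxidative phosphorylation, nuclear, in the 34-library fit was 20 without replicate 4 at 14 days, 28 without replicate 1 at 14 days, 26 without replicate 1 at 12 days and 40 without both libraries of low *roX1*. Scaled by library size only it was 26. Of 18 genes of the citrate cycle, 0 were called in limma on the 8 libraries and 2 were lower in the 34-library fit, among them *kdn*, citrate synthase (−0.27, adjusted p = 0.126 and 0.0212). Of 14 glycolysis genes none was called in either fit, and 13 had a negative value. Each of these lists had 2 genes with p below 0.05 before adjustment in limma on the 8 libraries, and edgeR and DESeq2 called 0. *ImpL3* (*Ldh*), lactate dehydrogenase, spread widely, with 1161, 515.5, 1370 and 211 CPM at 14 days and 1305, 1452, 762 and 2404 CPM at 12 days. These groups overlapped (−1.08, adjusted p = 0.245 and 0.12).

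The genes of both kinds of ribosome had negative medians as well. Among mitochondrial ribosomal proteins, 6 of 71 were lower in the 8 libraries and 29 in the 34-library fit, with a median of −0.19. Among cytosolic ribosomal proteins, 2 of 82 were lower in the 8 libraries and 32 in the 34-library fit, with a median of −0.14. *RpLP1*, a protein of the ribosomal stalk, averaged 1333 ± 57.8 CPM at 14 days and 1621 ± 57.8 CPM at 12 days (SD, n = 4 each), without overlap (−0.28, adjusted p = 0.0324 and 2.41e-05). The count for Cytosolic ribosomal proteins depended on single libraries. In the 34-library fit it was 8 without replicate 4 at 14 days, 13 without replicate 1 at 12 days (where 1 gene was higher), 19 without replicate 4 at 12 days and 53 without both libraries of low *roX1*, and 15 when scaled by library size only. Of all 8317 tested genes these fits called 674, 1051, 837, 1037 and 740 lower, in the same order. The counts of 8 and 13 of 82 were near those shares. The count for Mitochondrial ribosomal proteins was 20 to 39 with 1 library left out, 31 without the libraries of low *roX1* and 22 when scaled by library size only.

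Genes of ribosome assembly were mostly shifted downwards too, with 28 of 31 values below 0 and a median of −0.18. Of 31 ribosome biogenesis genes, a list from which 3 misplaced entries were taken out after values were seen, 6 were lower and 1 was higher in the 8 libraries, and 16 were lower and 1 was higher in the 34-library fit. With those entries put back, 7 and 17 of 34 were lower and 1 was higher in either fit. The small nucleolar RNP proteins *NHP2* (−0.35, adjusted p = 0.0226), *nop5* (−0.31, adjusted p = 0.0426) and *Nop56* (−0.28, adjusted p = 0.0282) were lower. The gene that was higher was *Non1*, a nucleolar GTPase of the large subunit, with 2245, 2349, 2222 and 2400 CPM at 14 days and 1812, 1834, 1664 and 1664 CPM at 12 days. Its ages did not overlap (0.40, standard error 0.0637, adjusted p = 0.0226 and 8.36e-06). Without both libraries of low *roX1*, 9 genes of the Ribosome biogenesis list were lower and 1 was higher in the 34-library fit.

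Folding in the endoplasmic reticulum and the stress response through ATF4 were covered by 23 tested genes, of which 5 were lower and 1 was higher in the 8 libraries. There were 11 lower and 1 higher in the 34-library fit, and the median was −0.22. *Manf*, a secreted protein of the stressed reticulum (−0.34, adjusted p = 0.0456), *Der-1*, which helps to remove misfolded proteins (−0.27, adjusted p = 0.0336), and *CaBP1*, a disulfide isomerase (−0.27, adjusted p = 0.0393), were lower. The gene that was higher was *Sesn* (chromosome 2R, 23713900 to 23734846), the sestrin that restrains TORC1 under stress. It had 25.3, 29.9, 20.2 and 26.9 CPM at 14 days and 17.7, 12.2, 10.0 and 10.8 CPM at 12 days. All libraries at 14 days were the higher ones (0.98, standard error 0.166, adjusted p = 0.0226 and 0.000323), a level 1.97 times that at 12 days on the scale of CPM + 1. Among 21 genes of insulin and TOR signalling, *S6k*, the kinase downstream of TORC1 (0.23, adjusted p = 0.0424), and *Sdr*, a secreted protein that binds insulin-like peptides (0.45, adjusted p = 0.0359), were higher in the 8 libraries. The 34-library fit called 4 genes of the Insulin and TOR list higher and 2 lower, 5 higher and 1 lower without both libraries of low *roX1*, and 1 higher without replicate 4 at 14 days. In the Unfolded protein response and ATF4 list, 10 genes were lower and 1 was higher without both libraries of low *roX1*.

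**Figure D4:**
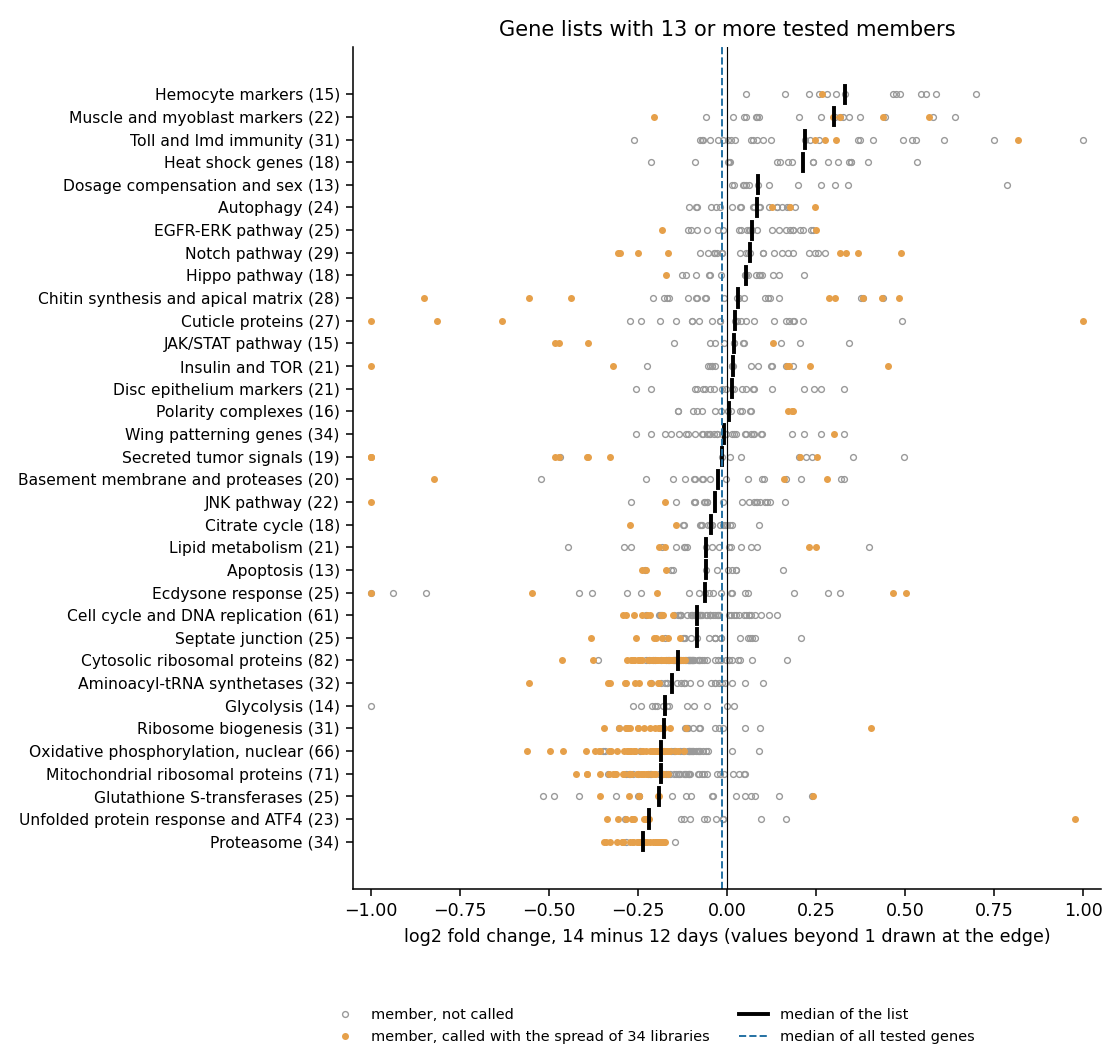
Log2 fold change (14 minus 12 days AEL) of each tested member of the gene lists with 13 or more tested members, ordered by the list's median (black bar); the number tested is in brackets. Orange points passed the test in the 34-library fit. All 34 Proteasome members lay below 0, where the median of all genes (dashed line) was −0.01, and all 15 Hemocyte markers above 0.

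Secreted signals of the tumor were reduced in part. *Ilp8*, the relaxin-like hormone by which damaged or overgrown discs delay metamorphosis, had 27.4, 35.2, 53.9 and 26.4 CPM at 14 days and 46.4, 104, 82.5 and 96.3 CPM at 12 days. Replicate 3 at 14 days lay above replicate 1 at 12 days, and the log2 fold change was −1.18 (standard error 0.267, adjusted p = 0.0381 and 0.00181). *daw*, an activin-like ligand, had the lowest fold change of all tested genes on the log2(CPM + 1) scale. Its libraries spread over 13, 7.32, 35 and 11.3 CPM at 14 days and 19.3, 62.9, 114 and 67.6 CPM at 12 days. The ages overlapped, and the change of −1.91 passed in the 34-library fit but not in the 8 (adjusted p = 0.0622 and 0.000603). *ImpL2*, a secreted insulin-binding protein that tumors use against the growth of other tissues, had 609, 224, 680 and 252 CPM at 14 days and 512, 845, 915 and 1084 CPM at 12 days. It overlapped too and was called in the same fit only (−1.05, adjusted p = 0.113 and 0.00606).

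Of the 3 Unpaired cytokines, which activate JAK/STAT signalling, *upd1* averaged 27.9 ± 4.91 CPM at 14 days and 36.8 ± 5.55 CPM at 12 days (SD, n = 4 each). *upd2* averaged 8.59 ± 3.05 CPM at 14 days and 11.9 ± 2.02 CPM at 12 days, and *upd3* averaged 6.45 ± 1.74 CPM at 14 days and 9.24 ± 1.08 CPM at 12 days (SD, n = 4 each). None of them passed in the 8 libraries (adjusted p = 0.104, 0.222 and 0.0987), and all were lower in the 34-library fit (adjusted p = 0.0131, 0.0355 and 0.0341). With 1 of the 8 libraries left out in turn, *upd1* passed in 6 of these 8 fits, *upd2* in 4 and *upd3* in 3. *Pvf1*, a ligand of the PDGF and VEGF receptor family, was also lower in the 34-library fit only (−0.39, adjusted p = 0.107 and 0.0337), and passed in 4 of the 8 fits. Both fits called *Idgf4*, a chitinase-like growth factor of discs, which was lower with 1770, 1680, 1725 and 1859 CPM at 14 days and 2104, 2009, 2397 and 2338 CPM at 12 days (−0.33, adjusted p = 0.0378 and 0.00452). Both also called the TGF-beta ligand *mav*, which was higher without overlap (0.25, adjusted p = 0.0415 and 0.00805). Over the list of 19 Secreted tumor signals, 2 were lower and 1 was higher in the 8 libraries, and 8 were lower and 2 were higher in the 34-library fit. That fit called 6 lower and 1 higher without both libraries of low *roX1*. It called 4 lower without replicate 4 at 14 days, and 5 lower without replicate 2 at 14 days, without replicate 1 at 12 days or without replicate 4 at 12 days.

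Among genes of innate immunity, a receptor and the NF-kappaB transcription factors were higher. *PGRP-LC* (chromosome 3L, 9338810 to 9348336), the membrane receptor for bacterial peptidoglycan in the Imd pathway, had 18.4, 24.7, 26.2 and 25.9 CPM at 14 days and 11.1, 13.4, 15.6 and 12.1 CPM at 12 days. Its ages did not overlap (0.82, standard error 0.129, adjusted p = 0.0226 and 0.000163). The 3 NF-kappaB factors of the fly were all higher without overlap. *Rel*, which acts in the Imd pathway, had 136, 134, 133 and 131 CPM at 14 days and 113, 107, 114 and 114.9 CPM at 12 days (0.25, adjusted p = 0.0278 and 0.000104). *dl* had 141, 150, 136 and 147 CPM at 14 days and 120, 119, 114 and 121 CPM at 12 days (0.27, adjusted p = 0.0269 and 0.000211), and it acts with *Dif* in the Toll pathway. *Dif* had 69.7, 63.0, 68.3 and 65.6 CPM at 14 days and 55.4, 58.6, 49.0 and 52.4 CPM at 12 days (0.30, adjusted p = 0.0359 and 0.0473). In the 34-library fit with 1 of the 8 libraries left out in turn, *Dif* passed in only 1 of the 8 fits. *PGRP-LC*, *Rel* and *dl* passed in all 8. These 4 were the only calls among 31 tested genes of the Toll and Imd immunity list in the 8 libraries and in the 34-library fit. That second fit gave 3 or 4 calls with 1 library left out, 3 without both libraries of low *roX1* and 5 when scaled by library size only. The antimicrobial peptide gene *AttC* had 17.6, 0.687, 1.76 and 1.97 CPM at 14 days and 0.0506, 0.559, 0.692 and 1.86 CPM at 12 days. A single library was high, and the gene was not called (1.26, adjusted p = 0.248). *dnr1*, a ubiquitin ligase that restrains the caspase of the Imd pathway, was not on the list. It was higher with 127, 124, 107 and 114 CPM at 14 days and 87.8, 61.8, 57.3 and 55.7 CPM at 12 days (0.86, standard error 0.129, adjusted p = 0.0226 and 9.86e-05).

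Markers of hemocytes, the blood cells that gather on tumors, moved with these genes. All 15 had a positive log2 fold change, with a median of 0.33. Their summed level was 334, 304, 279 and 341 CPM at 14 days and 259, 245, 256 and 251 CPM at 12 days, so that every library at 14 days lay above every library at 12 days. An exact two-sided permutation test of the sums gave p = 0.0286, the smallest that 4 against 4 libraries allow, and 0.286 after adjustment over the 10 marker lists. Of the 15, 4 were higher in the 8 libraries. *NimC1*, a receptor for phagocytosis, had 11.3, 10.7, 10.5 and 15.8 CPM at 14 days and 9.47, 7.08, 7.31 and 6.79 CPM at 12 days (0.59, adjusted p = 0.0423 and 0.116). *eater*, another such receptor, averaged 3.45 ± 0.403 CPM at 14 days and 2.05 ± 0.273 CPM at 12 days, and the matrix enzyme *Pxn* averaged 50.6 ± 4.11 CPM at 14 days and 36.3 ± 5.1 CPM at 12 days (SD, n = 4 each). Neither these nor the scavenger receptor *Sr-CI* passed in the 34-library fit (adjusted p = 0.0999, 0.234 and 0.194), which called *ush*, a transcription factor also active in discs (0.27, adjusted p = 0.133 and 0.0129). The defining gene *Hml* averaged 33.6 ± 6.32 CPM at 14 days and 27 ± 5.27 CPM at 12 days (SD, n = 4 each; 0.31, adjusted p = 0.248). The part of hemocyte RNA in the levels of the immunity genes was not tested.

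Even with complete separation of the ages, the sum of a single list could not pass after that adjustment, so the other marker lists are given by their values alone. Fat body markers summed to 37.7 to 172 CPM at 14 days and 50.4 to 180 CPM at 12 days, and gut markers to 22.9 to 34.6 CPM at 14 days and 25.8 to 29.6 CPM at 12 days, with 18 of the 45 gut genes at 0 in all 8 libraries. Muscle and myoblast markers had a median of 0.30 and sums of 1336 to 1609 CPM at 14 days and 1224 to 1676 CPM at 12 days. Of these 22, 0 were called in limma or edgeR and 2 in DESeq2 on the 8 libraries, with 6 at an unadjusted p under 0.05 in limma, and 4 were higher and 1 was lower in the 34-library fit. Of all 8317 tested genes, DESeq2 called 910 and limma had 1982 at an unadjusted p under 0.05. Without both 12 day libraries of low *roX1* the median of the Muscle and myoblast markers was −0.02, with 1 higher and 1 lower in the 34-library fit. The number higher was 0 without replicate 4 at 14 days, 2 without replicate 1 at 14 days and 1 without replicate 2 at 12 days. In the list of dosage compensation and sex, *fru* was called in the 8 libraries only (0.34, adjusted p = 0.0448 and 0.104), and *roX1* in neither (0.79, adjusted p = 0.158 and 0.19).

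Most of the genes with the largest increases were members of no list. *bdl* (chromosome 2L, 4324554 to 4331830), an adhesion protein of the immunoglobulin family, had 66.2, 91.4, 73.8 and 89.3 CPM at 14 days and 52.5, 40.3, 36.3 and 35.8 CPM at 12 days. Its ages did not overlap (0.95, standard error 0.134, adjusted p = 0.0226 and 4.86e-05). *Msp300*, the nesprin that links nuclei to the actin cytoskeleton, had 1098, 971, 1056 and 1298 CPM at 14 days and 824, 532, 656 and 674 CPM at 12 days (0.73, adjusted p = 0.0232 and 0.00024). Among the adhesion and channel genes, *nrm*, also of the immunoglobulin family, was higher by 0.78 (adjusted p = 0.0253 and 0.000389) and *tty*, a chloride channel, by 0.74 (adjusted p = 0.0253 and 0.00505). *CG31547* (*NKCC*) averaged 16.6 ± 1.39 CPM at 14 days and 8.4 ± 2.17 CPM at 12 days (SD, n = 4 each; 0.94, adjusted p = 0.0226 and 0.0004). The remaining genes of the 12 were *CG32170* (0.80), *CG4576* (0.74), *CR33294* (0.72) and *CG7213* (0.71), with adjusted p-values of 0.0226 to 0.0278 in the 8 libraries.

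Some genes of lower level rose by more. *Cpr76Bc*, a cuticle protein gene, had 6.04, 7.02, 4.48 and 5.67 CPM at 14 days and 1.57, 2.7, 0.741 and 1.61 CPM at 12 days. This was the largest increase of all tested genes on the log2(CPM + 1) scale (1.39, standard error 0.209, adjusted p = 0.0226 and 2.58e-06). *SmydA-4*, a protein with a SET and MYND domain, had 2.83, 5.06, 4.63 and 5.37 CPM at 14 days and 2.08, 0.745, 1.23 and 1.06 CPM at 12 days (1.27, adjusted p = 0.0226 and 6.85e-06). The ages of both genes were apart in all libraries. The cytochrome P450 genes *Cyp28a5* (1.02, adjusted p = 0.0278 and 0.0025) and *Cyp6a9* (0.93, adjusted p = 0.0451 and 0.00172) were also higher. *Cpr76Bc* was the only call among 27 cuticle protein genes in the 8 libraries, and in the 34-library fit it was joined by 3 that were lower, also without both libraries of low *roX1*. Of the Cuticle proteins, 0 were lower in that limma fit without replicate 1 at 14 days or replicate 4 at 12 days, and 1 without replicate 2 at 14 days. Among 28 genes of chitin and the apical matrix, *kkv*, the chitin synthase (0.28, adjusted p = 0.0321 and 0.000169), and *dpy*, a giant protein of the apical matrix (0.48, adjusted p = 0.0324 and 0.00563), were higher in both fits. The 34-library fit called 5 genes of the Chitin synthesis and apical matrix list higher and 3 lower, and 5 higher and 1 lower without both libraries of low *roX1*. It gave 3 to 8 higher and 1 to 3 lower with 1 library left out, the 3 without replicate 2 and the 8 without replicate 3 at 14 days. Among all tested genes, 7.48% were higher and 12.7% were lower in the 34-library fit.

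Ecdysone, the steroid that times larval molts and metamorphosis, was followed through 25 response and timing genes, of which 2 were higher and 1 was lower in the 8 libraries. *chinmo* (chromosome 2L, 1651258 to 1704682), a transcription factor that marks early developmental time, had 578, 545, 534 and 669 CPM at 14 days and 409, 415, 437 and 376 CPM at 12 days. *ftz-f1*, a nuclear receptor that follows an ecdysone pulse, had 123, 128, 114 and 146 CPM at 14 days and 94.9, 104, 93.9 and 77.0 CPM at 12 days. Both were higher without overlap (0.50, adjusted p = 0.0226 and 0.019, for *chinmo*, and 0.47, adjusted p = 0.0327 and 0.0151, for *ftz-f1*). *ImpE1*, an ecdysone-induced gene of disc eversion, was lower, with 6.71, 4.76, 6.77 and 7.24 CPM at 14 days and 14.8, 21.1, 10.2 and 30.3 CPM at 12 days (−1.36, standard error 0.264, adjusted p = 0.0278 and 0.000719). The receptor *EcR* (0.19, adjusted p = 0.0981 and 0.0746) and the early gene *br* (−0.06, adjusted p = 0.813 and 0.741) were not called. Over the whole Ecdysone response list, 2 genes were higher and 3 were lower in the 34-library fit, and 2 and 4 without both libraries of low *roX1*. None was higher without replicate 4 of either age, and 5 were lower without replicate 1 at 12 days. Over all tested genes the 34-library fit called 7.48% higher and 12.7% lower.

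MAPK signalling, which the study followed in these tumors, gave few calls over this step. Of 22 genes of the JNK pathway list only *Ilp8*, which that list shares with the secreted signals, was called in the 8 libraries. *bsk*, the JNK itself, was also lower in the 34-library fit (−0.17, adjusted p = 0.182 and 0.0369), and in 4 of the 8 fits with 1 library left out. Without both libraries of low *roX1* that list gave 2 higher and 4 lower. The matrix metalloproteinase gene *Mmp1* had 350, 306, 350 and 328 CPM at 14 days and 402, 309, 301 and 423 CPM at 12 days, and *puc*, the JNK phosphatase, had 183, 169, 153 and 185 CPM at 14 days and 183, 140, 139 and 158 CPM at 12 days. Both overlapped between the ages (−0.09, adjusted p = 0.657, and 0.16, adjusted p = 0.328). Of 25 genes of the EGFR-ERK pathway, 0 passed in limma or edgeR and 1 in DESeq2 on the 8 libraries, with 2 at an unadjusted p under 0.05 in limma. Of all 8317 tested genes, 910 passed in DESeq2 and 1982 had an unadjusted p under 0.05 in limma. In the 34-library fit *kek1*, a feedback target of the receptor, was higher, with 139, 130, 138 and 165 CPM at 14 days and 109, 143, 127 and 105 CPM at 12 days (0.25, adjusted p = 0.174 and 0.0386). It passed in 4 of the 8 fits with 1 library left out, and had an adjusted p of 0.0662 in the fit of the 27 tumor libraries. *Ras85D* was lower, and passed with any 1 of the 8 libraries left out (−0.18, adjusted p = 0.0665 and 0.00174). The list gave 0 to 3 higher and 1 or 2 lower with 1 library left out: 0 higher without replicate 1 or 4 of either age and 3 without replicate 2 or 3 at 14 days. Without both libraries of low *roX1* it gave 2 higher and 1 lower. The feedback inhibitors *sty* (0.20, adjusted p = 0.286) and *aos* (0.21, adjusted p = 0.214) and the ligand *vn* (0.17, adjusted p = 0.611) were not called. *cindr*, an adaptor protein of cell junctions, averaged 501 ± 37.2 CPM at 14 days and 438 ± 26.3 CPM at 12 days (SD, n = 4 each; 0.19, adjusted p = 0.114 and 0.0125). The JAK/STAT pathway list of 15 genes had 0 calls in limma or edgeR and 1 in DESeq2 on the 8 libraries, with 4 at an unadjusted p under 0.05 in limma. The 34-library fit called 3 lower, the Unpaired ligands, and 1 higher. Lower were 0 without replicate 4 at 14 days and 1 without replicate 2 at 14 days or replicate 1, 2 or 4 at 12 days, and without both libraries of low *roX1* 2 were lower and 2 higher.

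In the cell cycle, 2 of 61 genes were lower in the 8 libraries, and 9 were lower and 0 were higher in the 34-library fit. These shares were near those of all genes that were lower, 2.67% and 12.7%. *Cdk1*, the mitotic kinase, had 78.5, 75, 84.9 and 70.0 CPM at 14 days and 93.5, 97.6, 92.9 and 92.0 CPM at 12 days (−0.29, adjusted p = 0.0367 and 0.000232). *borr*, of the chromosomal passenger complex, averaged 69.0 ± 2.74 CPM at 14 days and 82.9 ± 4.42 CPM at 12 days (SD, n = 4 each; −0.26, adjusted p = 0.036 and 0.000161). Neither overlapped between the ages. Without both libraries of low *roX1* the Cell cycle and DNA replication list gave 5 lower and 4 higher in the 34-library fit. *stg*, the phosphatase that starts mitosis (0.12, adjusted p = 0.585), and *Cks30A*, a subunit of Cdk1 (−0.04, adjusted p = 0.675), were not called.

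Of 29 Notch pathway genes, the target *E(spl)m7-HLH* was higher, with 16.5, 17.4, 16.8 and 17.2 CPM at 14 days and 10.6, 10.6, 13.7 and 12.6 CPM at 12 days (0.49, adjusted p = 0.0272 and 0.011), and *Tom*, of the Bearded family, was lower (−0.30, adjusted p = 0.0406 and 0.00313). Of the Notch pathway list, 4 were higher and 4 were lower in the 34-library fit, and 3 and 2 without both libraries of low *roX1*. Only 2 were lower in that fit without replicate 1, 3 or 4 at 14 days or replicate 2 or 4 at 12 days. With all libraries it called 7.48% of all tested genes higher and 12.7% lower. Of 25 septate junction genes, *bou* (−0.38, adjusted p = 0.029 and 7.95e-05) and *CG10217* (*udt*, −0.26, adjusted p = 0.0306 and 0.000181) were lower in both fits. The Septate junction list had 7 lower in the 34-library fit, 5 to 9 with 1 library left out and 8 without both libraries of low *roX1*. None of 18 Hippo pathway, 34 wing patterning, 16 polarity, 20 basement membrane and protease, 13 apoptosis, 24 autophagy, 25 glutathione S-transferase or 18 heat shock genes was called by limma or edgeR in the 8 libraries. At an unadjusted p under 0.05 limma had 2, 2, 4, 3, 3, 6, 8 and 1 of them, in the same order. DESeq2 called 0 Hippo pathway, 0 wing patterning, 3 polarity, 1 basement membrane, 1 apoptosis, 1 autophagy, 4 glutathione S-transferase and 0 heat shock genes. Of all 8317 tested genes, DESeq2 called 910 and limma had 1982 at an unadjusted p under 0.05. In the 34-library fit, 3 autophagy genes were higher, among them *Pi3K59F* (0.25, adjusted p = 0.0226), and 6 glutathione S-transferases were lower and 1 higher. Without replicate 4 of either age 0 of the Autophagy list passed in that limma fit, and without replicate 4 at 14 days 3 Glutathione S-transferases were lower, against 4 without replicate 1 or 4 at 12 days and 10 without both libraries of low *roX1*. In the same fit 3 polarity genes were higher, among them *sdt* of the Crumbs complex (0.19, adjusted p = 0.0321), and *Diap1*, an inhibitor of caspases, was the 1 Hippo pathway gene called (−0.17, adjusted p = 0.0124). Without replicate 1 at 12 days 1 of the Polarity complexes was higher and 2 were lower, without replicate 4 of either age 1 was higher, and without both libraries of low *roX1* 4 were higher and 1 was lower. The Hippo pathway gave 0 calls in limma without replicate 4 of either age, 2 higher and 2 lower without replicate 2 at 14 days, 1 higher and 2 lower without replicate 3 at 12 days, and 3 higher and 1 lower without both libraries of low *roX1*. Of the Wing patterning genes 1 was higher in the 34-library fit, against 6 without both libraries of low *roX1* and 0 without replicate 1 or 4 of either age, and 4 were lower without replicate 1 at 12 days. Of the 13 apoptosis genes, 3 were lower and 0 higher in the 34-library fit with all libraries. Of the 20 basement membrane and protease genes, that fit called 2 higher and 1 lower. The lower one was *Mmp2* (−0.82, adjusted p = 0.111 and 0.0145), where replicate 4 at 12 days stood at 85.8 CPM, the other 12 day libraries at 31.7, 33.9 and 28.2 CPM and those of 14 days at 20.5, 20.9, 23.1 and 25.0 CPM. *Hsl*, a lipase of lipid droplets, was higher in both fits (0.25, adjusted p = 0.0423 and 0.0017), and *His3.3A*, a replication-independent histone, was lower in both (−0.20, adjusted p = 0.0455 and 0.000273).

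Each change over the last step was also set against that of the earlier 2 days from 8 to 10 days AEL, a step that shares no library with it. The log2 fold change from 12 to 14 days differed from that between 8 and 10 days in 1050 of 9408 genes (11.2%) tested over the 27 tumor libraries, being more positive in 463 and more negative in 587. Among them were 140 of the 408 genes called in the 8 libraries and 394 of the 1678 called in the 34-library fit. The difference between the steps contains the change from 12 to 14 days by which those genes were called. These counts, and the adjusted p-values of the difference given below, are therefore no separate evidence for that change. Of the 8317 genes tested over the last step, 12.5% were higher and 13.6% were lower at 10 than at 8 days. Of the 622 genes higher at 14 than at 12 days in the 34-library fit, 166 (26.7%) were also higher at 10 than at 8 days, which is 16% of the 1037 genes higher over the earlier step, and 33 (5.31%) were lower there. Of the 1056 that were lower at 14 days, 341 (32.3%) were also lower at 10 than at 8 days, which is 30.1% of 1133, and 51 (4.83%) were higher there.

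Genes of amino acid supply were among those whose change differed from that between 8 and 10 days, but most of those below were also lower at 12 than at 10 days. *mnd* averaged 135 ± 5.60 CPM at 8 days, 164 ± 24.4 CPM at 10 days, 93.5 ± 36.5 CPM at 12 days and 29.1 ± 11.1 CPM at 14 days (SD, n = 4 each). Its log2 fold change over the last step was lower by 1.91 than over the earlier one (adjusted p = 0.000539), and that of *path* by 1.5 (adjusted p = 0.00298). The difference was −0.93 for *CD98hc* (adjusted p = 0.000159), −0.95 for *Nmdmc* (adjusted p = 0.000121) and −0.85 for *AsnRS* (adjusted p = 2.88e-05). At 12 against 10 days, which shares the 12 day libraries with the last step, the log2 fold change was −0.88 for *mnd* (adjusted p = 0.021), −0.67 for *path* (adjusted p = 0.0702) and −0.35 for *CD98hc* (adjusted p = 0.0328). Over the same days it was −0.50 for *JhI-21* (adjusted p = 0.00416), −0.65 for *AsnS* (adjusted p = 0.0141), −0.66 for *Nmdmc* (adjusted p = 0.000235) and −0.49 for *AsnRS* (adjusted p = 0.000378). Among secreted signals the difference between the last step and that from 8 to 10 days was −1.83 for *Ilp8* (adjusted p = 0.00256) and −3.36 for *daw* (adjusted p = 0.000716), and for *ImpE1* it was −2.10 (adjusted p = 0.00179). *CG6287* had a difference of −1.76 (adjusted p = 0.000752). *Ilp8* had its highest mean of all tumor ages, 235 ± 6.85 CPM, at 4 days, and at 14 days it averaged 35.7 ± 12.7 CPM (SD, n = 4 each).

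In the opposite direction, the difference between these steps was 1.48 for *Cyp6a9* (adjusted p = 0.00216), 1.46 for *Cyp28a5* (adjusted p = 0.0108), 1.45 for *SmydA-4* (adjusted p = 0.000702), 1.30 for *Sesn* (adjusted p = 0.000539) and 1.11 for *Cpr76Bc* (adjusted p = 0.00225). *Sesn* averaged 51.4 ± 5.16 CPM at 4 days, 7.74 ± 1.95 CPM at 10 days, 12.7 ± 3.46 CPM at 12 days and 25.6 ± 4.09 CPM at 14 days (SD, n = 4 each), so that its level at 14 days lay between those of the youngest tumors and of those at 10 days. *bdl* had a mean above that of the age before at each age from 8 to 14 days, with 18.2 ± 2.12 CPM at 8 days and 80.2 ± 12.2 CPM at 14 days (SD, n = 4 each), and the difference of its change between the steps missed the threshold (0.58, adjusted p = 0.0502). *PGRP-LC* had a difference of 0.14 (adjusted p = 0.647), with changes of 0.82 over the last step and 0.67 over the earlier one. The proteasome list had 9 of 34 genes whose change differed between the steps, the list of ATF4 and folding 14 of 23, and the lists of oxidative phosphorylation and of mitochondrial ribosomal proteins 2 of 66 and 0 of 71, where the share over all genes was 11.2%. Oxidative phosphorylation genes had a median of −0.20 at 10 against 8 days, −0.07 at 12 against 10 days and −0.19 at 14 against 12 days. In the same order, the medians were −0.07, −0.15 and −0.24 for the proteasome list. For the list of ATF4 and folding they were 0.06, −0.11 and −0.22, so both lists also had negative medians at 12 against 10 days.

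**Figure D5:**
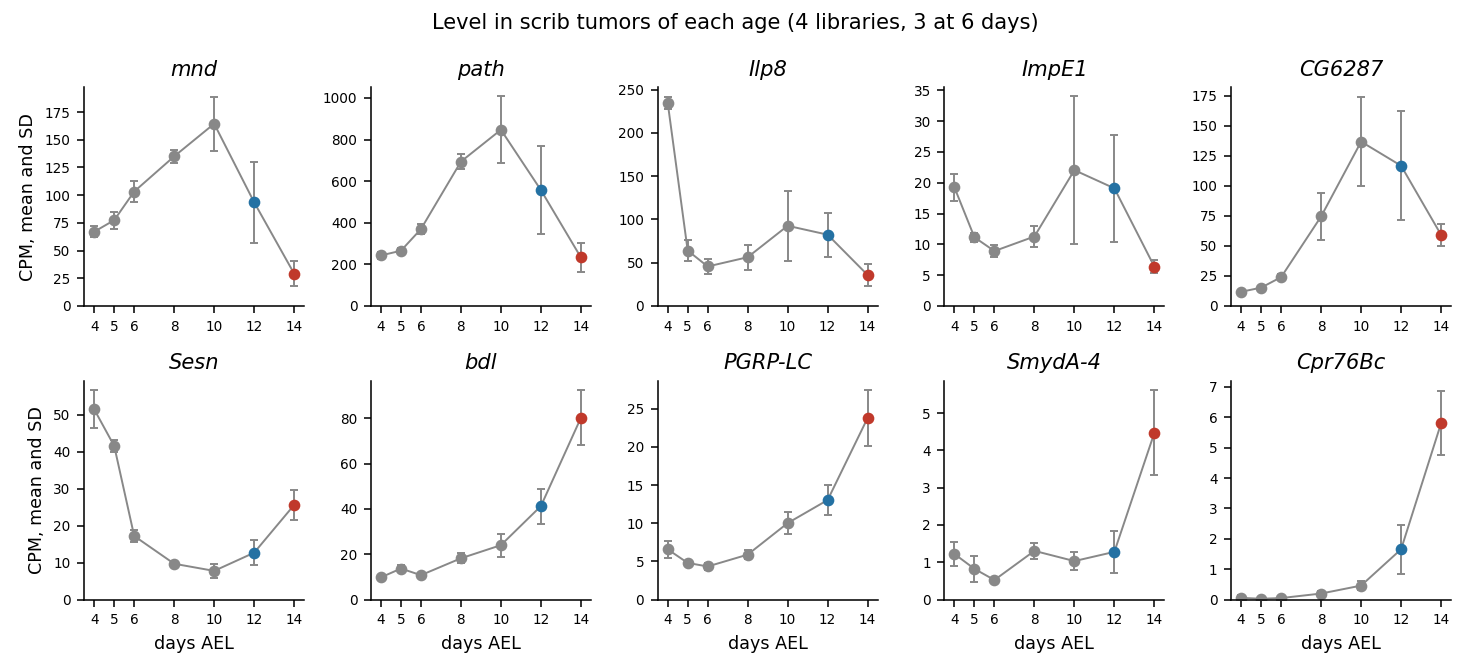
Mean CPM and SD of 10 genes in *scrib* tumors at each age (days AEL), from 4 libraries an age and 3 at 6 days, with 12 days in blue and 14 days in red. The upper genes had their mean at 14 days below that at 12 days, and the lower genes had it above; *Cpr76Bc* reached 5.8 CPM at 14 days.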

How the data were processed

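Total RNA of wing imaginal discs was sequenced as 150 bp paired ends. STAR was used by the authors for mapping to BDGP6, and featureCounts of Subread for the read count of each gene. The authors deposited CPM values, the reads of a gene scaled to a fixed library total, made with edgeR after a scaling between libraries. For 20 libraries whose values add up to slightly more than that total, the deposited values were entered as a signal and were analysed as CPM. All values were whole multiples of the step of 1 read (100% whole within a tolerance of 0.1), so reads could be recovered.

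Groups came from the labels. Genes were kept by filterByExpr on the recovered reads, and log2(CPM + 1) was compared with limma 3.58.1 (empirical Bayes with an intensity trend, two-sided, Benjamini-Hochberg adjustment over all tested genes, threshold 0.05) in R 4.3.3, on the 8 libraries and again with the spread of all 34 libraries (9 group means). Fold changes on this scale understate changes of low genes. The difference between steps was a contrast over the 27 tumor libraries. Alternatives were edgeR 4.0.16 and DESeq2 1.42.0 on recovered reads, a pseudocount of 0.1, other filters, scalings, sample weights, the replicate number as a block and each library left out. Tests were tried on simulated data.

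Named were the 12 genes with the largest and the 12 with the smallest log2 fold change among called genes with at least 10 CPM at either age and no overlap, up to 3 called members of each list in each direction (or its extremes), the genes named in the study's transcript results, and the 5 called genes in each direction whose change differed most between the steps; a few were added after their values were seen (*roX1*, *roX2*, *daw*, *ImpL2*, *upd1*, *upd2*, *Pvf1*, *Pxn*, *Rel*, single members such as *AttC*, *Hml*, *ush*, *EcR*, *br* and *bsk*, and the genes of amino acid supply). The comparison and the 44 gene lists were chosen with earlier results of these data known. Some genes and the mitochondrially encoded genes are not reported here. Symbols were matched to an annotation of BDGP6 for 17490 of 17641 genes (99.1%), which may differ from the release the authors used; the annotation release is not given in the sources used here. Libraries of an age are described as biological replicates, without the number of discs in each, so p-values measure the spread between these libraries. Read floors cover counting error only. Counting was not stated to use strand, so reads of overlapping genes on opposite strands cannot be told apart.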

Additional observations from a re-analysis of the deposited data

Results flagged for a closer look

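In 9 of 280 groups of 4 libraries, those of the named genes and of the marker sums at either age, 1 library stood away from the other 3 by more than Dixon's critical value of 0.829 for the ratio of its gap to the whole range, where chance gives about 5% of groups. At 14 days the ratio was 0.942 for *Hsl*, 0.924 for *dpy* and 0.864 for *NimC1*, with replicate 4 the high one in each. It was 0.883 for *roX1* and 0.829 for *Col4a1*, a chain of collagen IV, with replicate 3 the low one in both, and 0.83 for *Rpn7*, where replicate 2 was low. At 12 days it was 0.902 for *Mmp2* (replicate 4 high), 0.848 for *CG5535* (replicate 3 high) and 0.843 for *UQCR-6.4* (replicate 3 low).

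The change from 12 to 14 days differed from that between 8 and 10 days in 1050 genes in limma. Of the named genes chosen for this difference, it was most negative, on the log2 scale, for *ImpE1* (−2.1), *mnd* (−1.91), *Ilp8* (−1.83), *CG6287* (−1.76) and *path* (−1.5). It was most positive for *Cyp6a9* (1.48), *Cyp28a5* (1.46), *SmydA-4* (1.45), *Sesn* (1.3) and *Cpr76Bc* (1.11).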

How the results depend on the processing

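In the 8 libraries the count of 408 genes became 1678 with all 34 libraries in the fit, 1649 with the 27 tumor libraries, 910 with DESeq2 (469 higher, 441 lower at 14 days), 95 without the filter on low counts (13322 genes tested), 0 with the replicate block and 0 without both 12 day libraries of low *roX1*, a choice made after seeing the data. With 1 library left out it lay between 0 and 548. It was 382 with edgeR, 411 with a pseudocount of 0.1, 444 for genes with a mean above 100 reads, 352 and 426 under the other scalings and 534 with sample weights. Libraries of equal number were not alike after the group means were taken out (r = −0.13, −0.08, −0.23 and −0.11). For libraries of unequal number r lay between −0.29 and 0.38, so these few pairs cannot settle whether the numbers pair libraries. With the replicate block 1644 genes had an unadjusted p under 0.05 in limma. The cause of the lower counts was not tested.

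With the spread of all 34 libraries, where all alternatives were chosen after seeing the data, the count was 1019 to 1681 with 1 library left out, 1633 with the replicate block, 1582 with a pseudocount of 0.1 and 1580 scaled by library size only. The number of genes whose change differed between the steps was 760 to 1235 with 1 library left out, 1002 with the replicate block, 1057 with edgeR and 584 with only the 16 libraries of the 4 ages. Of the 76 named genes called in the 8 libraries, 71 were called with the spread of all 34, and 67 of them in every fit of that kind with 1 library left out. Those fits hold the libraries by which the 76 were called, so these counts are no separate evidence. In the 8-library fit 0 of the 76 passed without replicate 4 of either age or without replicate 2 at 14 days. Among the named genes not called, *roX2* changed sign, to −0.47 without both libraries of low *roX1* (adjusted p = 0.243). So did *slif* (0.00104 scaled by library size only, 0.267 without both libraries of low *roX1*, −0.183 to 0.0973 with 1 library left out), *gb* (0.00073, 0.0276 and −0.0663 to 0.00135 under the same settings) and *CG9413* (−0.307 to 0.00469 with 1 library left out). At this depth a level under 0.140 to 0.152 CPM could not be told from 0.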
